A study of Mus musculus with 62 samples.

Results

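Voluntary wheel running without any supplement was compared with a sedentary life in mouse quadriceps, the large extensor muscle of the thigh. The mice were chosen by their labels: 7 runners that received neither nicotinamide riboside (NR, a precursor of the coenzyme NAD) nor pterostilbene (PT, a plant stilbenoid), and 8 sedentary mice that received neither. These 15 are part of a factorial of 62 mice, in which the other 47 mice form the 3 arms given NR, PT or both, with 23 runners and 24 sedentary animals. All 62 were male. The labels used here state no strain, age, wheel distance or length of running. Each sample is 1 mouse, and whole quadriceps was measured by sequencing of poly-A RNA as read counts per gene.

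Mice were killed over 8 days, each with a morning and a noon session. On 7 of the 8 days 1 runner and 1 sedentary mouse of this arm were killed, and always in different sessions of that day. In the whole series too, each session held only runners or only sedentary mice. Running and session are therefore crossed only across days: runners 2, 6 and 7 and sedentary mice 1, 2, 5 and 7 were killed in the morning, and the rest at noon. The libraries held 10180034 to 20791241 counts in runners and 8917236 to 27047089 in sedentary mice, and their RNA integrity numbers were 9.4 to 10. The 10 muscle fibre markers fixed for the check of the tissue were all measured in both groups, summing to 130400 to 171300 CPM (counts scaled by library size) in runners and 137600 to 169200 CPM in sedentary mice.

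Endurance exercise is known to act on skeletal muscle in several ways. Contraction raises energy demand, and repeated activity is known to enlarge the mitochondrial network, to move fibres from the fast glycolytic toward the oxidative type, and to add capillaries around them. The coactivator PGC-1alpha, encoded by Ppargc1a, and the growth factor VEGF-A, encoded by Vegfa, are known regulators of the first and last of these.

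Without supplement, no single gene separated runners from sedentary mice after adjustment, while whole groups of genes leaned one way. These groups are lists chosen with earlier results of these data known, so their leaning is not independent evidence. Every nuclear respiratory chain and ATP synthase subunit on the lists that was tested was a little higher in runners, with median log2 changes of 0.15 to 0.18 per complex. All 20 endothelial markers and 32 of 35 extracellular matrix genes were higher as well, and genes of calcium handling, muscle regeneration and the glucocorticoid response were mostly lower. Some sizes moved with the mice included. The matrix median of 0.23 was 0.06 without sedentary mice 3 and 8. The glucocorticoid median was -0.36 and -0.09 in cohorts 1 and 2, sets of killing days fitted alone. Single genes with large differences included a lower Aldh3a1 and Sln and a higher Cyp1a1 and Aplnr in runners.

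The test was edgeR's quasi-likelihood F test on all 14549 genes that passed the filter on low counts, with day and time of termination in the model and Benjamini-Hochberg adjustment over all genes. It called 0 genes at an adjusted p below 0.05 (0%), and the smallest adjusted p was 0.412. At an unadjusted p below 0.05 there were 990 genes (6.8%), of which 554 were higher in runners (3.81%) and 436 lower (3%). Fits of the 15 mice alone with group, or with group and day, also called 0, with 1016 and 741 genes under an unadjusted 0.05. DESeq2 and limma called 0, with 1063 and 1105 genes under an unadjusted 0.05. Among the 990 genes the median difference was 1.18-fold, 113 differed by over 1.5-fold and 23 by over 2-fold. The median standard error over all genes was 0.11 on the log2 scale. Adjusted p-values below are those of this edgeR test, and none of the genes named below passed its threshold in this arm.

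**Figure D1:**
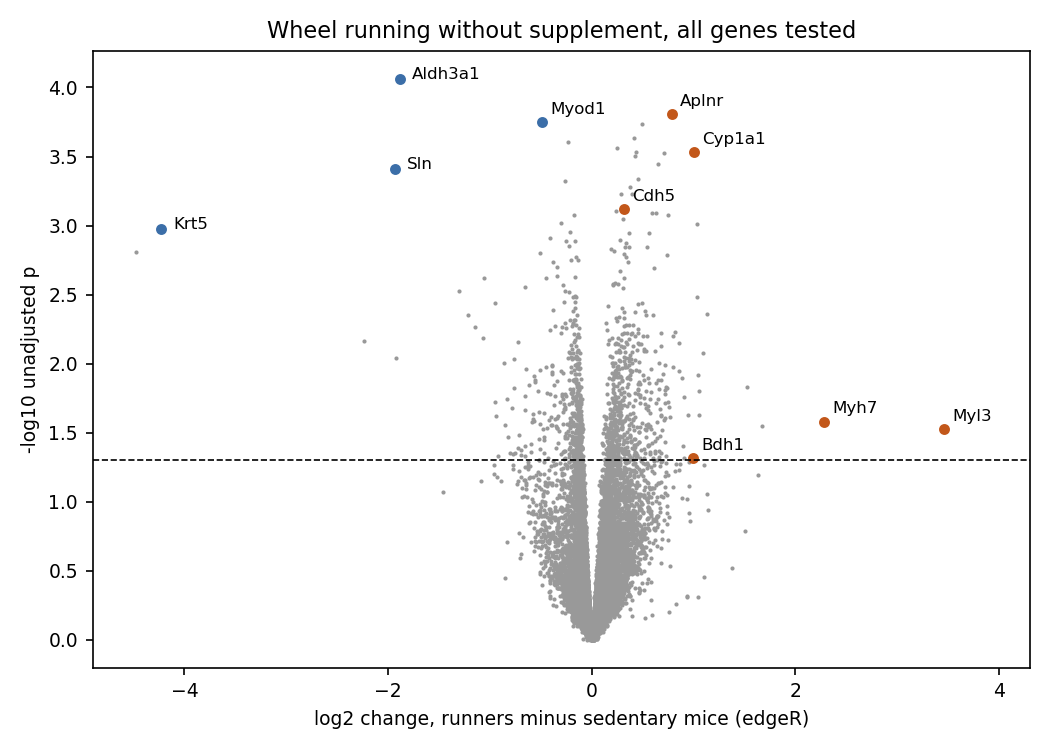
Each point is 1 of the 14549 genes tested, with the fitted log2 change (runners minus sedentary mice) on the x axis and the unadjusted p on a -log10 scale on the y axis; the dashed line marks an unadjusted p of 0.05. Aldh3a1, with a log2 change of -1.89, has the smallest p, and the keratin Krt5 and the slow-fibre genes Myh7 and Myl3 lie far out on the x axis.

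The promoters of a pair of genes are shown so that the regulatory sequence can be read beside the values. Tie1, an endothelial receptor tyrosine kinase, stands for the endothelial group, and Cyp1a1, a cytochrome P450 that is the textbook target of the aryl hydrocarbon receptor, for the xenobiotic genes. Sequences are the 250 bases before the RefSeq start of the gene in GRCm38.p6, read 5′ to 3′ along the gene's strand. In Tie1 (chr4:118489850-118490099, minus strand) capitals mark GGAAG, the core of sites for ETS factors, which act in endothelial cells, on either strand. In Cyp1a1 (chr9:57697363-57697612, plus strand) capitals mark GCGTG, the core of the site bound by the aryl hydrocarbon receptor.
Tie1: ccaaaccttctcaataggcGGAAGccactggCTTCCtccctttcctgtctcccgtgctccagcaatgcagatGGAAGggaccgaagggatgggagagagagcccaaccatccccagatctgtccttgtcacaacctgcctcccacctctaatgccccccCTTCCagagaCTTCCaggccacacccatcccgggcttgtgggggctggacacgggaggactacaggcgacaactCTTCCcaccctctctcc
Cyp1a1: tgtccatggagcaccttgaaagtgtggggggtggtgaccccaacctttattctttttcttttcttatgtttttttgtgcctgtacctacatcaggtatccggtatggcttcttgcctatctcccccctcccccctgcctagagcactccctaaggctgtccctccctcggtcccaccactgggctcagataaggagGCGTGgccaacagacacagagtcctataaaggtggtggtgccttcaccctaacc
The Tie1 window holds GGAAG 2 times on the printed strand and 4 times on the other, and the Cyp1a1 window holds GCGTG 1 time. GGAAG was present on either strand in 8 of the 10 endothelial markers matched to the table (80%) and in 18067 of all 27025 promoters of the same length (66.9%). GCGTG was present in 18 of 25 matched genes of the antioxidant and xenobiotic list (72%) and in 8338 of the 27025 (30.9%). The 27025 include promoters of genes not tested here, and base composition was not matched, so the shares are no test of enrichment. These matches describe letters in a window and show no binding.

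Among the xenobiotic genes, Aldh3a1, which had the smallest p of all genes, and Cyp1a1 went in opposite directions. Aldh3a1 (chr11:61207537-61218421), an aldehyde dehydrogenase, was at 0.269, 0.507 and 0.915 CPM in runners (lowest, median and highest of 7) and at 0.446, 1.78 and 4.48 CPM in sedentary mice (8). All 7 runners were below 1 CPM and 5 of the 8 sedentary mice were above it, with sedentary mouse 8 highest. The log2 change was -1.89 ± 0.44 (standard error), with an adjusted p of 0.412. The difference in Cyp1a1 ran the other way, from 0.340, 0.782 and 0.966 CPM in sedentary mice to 0.754, 1.37 and 2.08 CPM in runners. Of the runners, 6 of 7 were above every sedentary mouse, and the log2 change was 1.01 ± 0.26 (adjusted p = 0.412). Ahr, which encodes the aryl hydrocarbon receptor itself, had a mean of 4.70 CPM ± 0.743 (SD, n = 7) in runners and 3.52 CPM ± 0.618 (SD, n = 8) in sedentary mice, a log2 change of 0.42 ± 0.14. Gpx3, the extracellular glutathione peroxidase, was lower in runners (230.0 against 282 CPM on average, log2 change -0.30 ± 0.09). Of the 31 genes tested on the antioxidant and xenobiotic list, 3 were higher and 3 lower in runners at an unadjusted p below 0.05. Each is 9.68% of the list, against 3.81% of all genes higher and 3% lower. The list's median log2 change was -0.03. Cyp1a1 and Aldh3a1 are low-count genes, and both kept their direction when any 1 of the 15 mice was left out. Both were named for their small p in these same mice, so leaving out 1 mouse could hardly turn their sign.

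The endothelial list, like the others, was chosen with earlier results of these data known. All 20 endothelial markers were higher in runners, with a median log2 change of 0.22, beside 7577 of 14549 genes higher and a median of 0.01 over all genes. An unadjusted p below 0.05 was reached by 11 of the 20 (55%), against 3.81% of all genes in this direction. Genes of a list were measured in the same mice and can move together. Such counts, here and for the lists below, are therefore not counts of independent observations. Their summed level was 685.9 to 938.7 CPM in runners, with a median of 722.2, and 589.2 to 708 CPM in sedentary mice, with a median of 633.1. In whole muscle, more endothelial cells and more RNA per endothelial cell cannot be told apart.

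Aplnr (chr2:85136225-85139921), the receptor for the vessel-growth peptide apelin, was at 10.0, 14.3 and 26.6 CPM in runners and 4.46, 9.93 and 12.2 CPM in sedentary mice. Runner 1 stood highest, and only runner 5 was inside the sedentary range. The log2 change was 0.79 ± 0.19 (adjusted p = 0.412), and 0.64 without runner 1. Apln, the ligand of this receptor, was higher too, at 2.94 CPM ± 0.548 (SD, n = 7) against 1.95 CPM ± 0.640 (SD, n = 8), with a log2 change of 0.58 ± 0.22. Cdh5, the cadherin of endothelial junctions, was at 81.0, 88.1 and 136 CPM in runners and 66.3, 74.5 and 79.2 CPM in sedentary mice, so that the groups did not overlap. Its log2 change was 0.32 ± 0.09, and 0.24 without runner 1. Tie1, whose promoter is printed above, had a log2 change of 0.32 ± 0.10, and Emcn, the sialomucin of capillary and venous endothelium, of 0.33 ± 0.10. Among the 20 genes of angiogenic signalling, which share Aplnr and Tie1 with the markers, 19 were higher, with a median log2 change of 0.16. Efnb2, the arterial ephrin, had a log2 change of 0.34 and Nos3, the endothelial nitric oxide synthase, of 0.33. Vegfa itself was at 153, 179 and 192 CPM in runners and 127, 168 and 212 CPM in sedentary mice, with all 7 runners inside the sedentary range (log2 change 0.04 ± 0.11, adjusted p = 0.967).

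The endothelial difference was larger in cohort 1 than in cohort 2, the 2 sets of 4 days in which the mice were killed: the median of the 20 markers was 0.36 in cohort 1 and 0.13 in cohort 2, each fitted alone. The difference between cohorts was not tested. Pericyte and smooth muscle markers were higher for 10 of 12 genes, with a median of 0.09. Of these, Pdgfrb, a receptor on pericytes, had a log2 change of 0.25 and Rgs5, a regulator of G protein signalling found in pericytes, of 0.22.

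**Figure D2:**
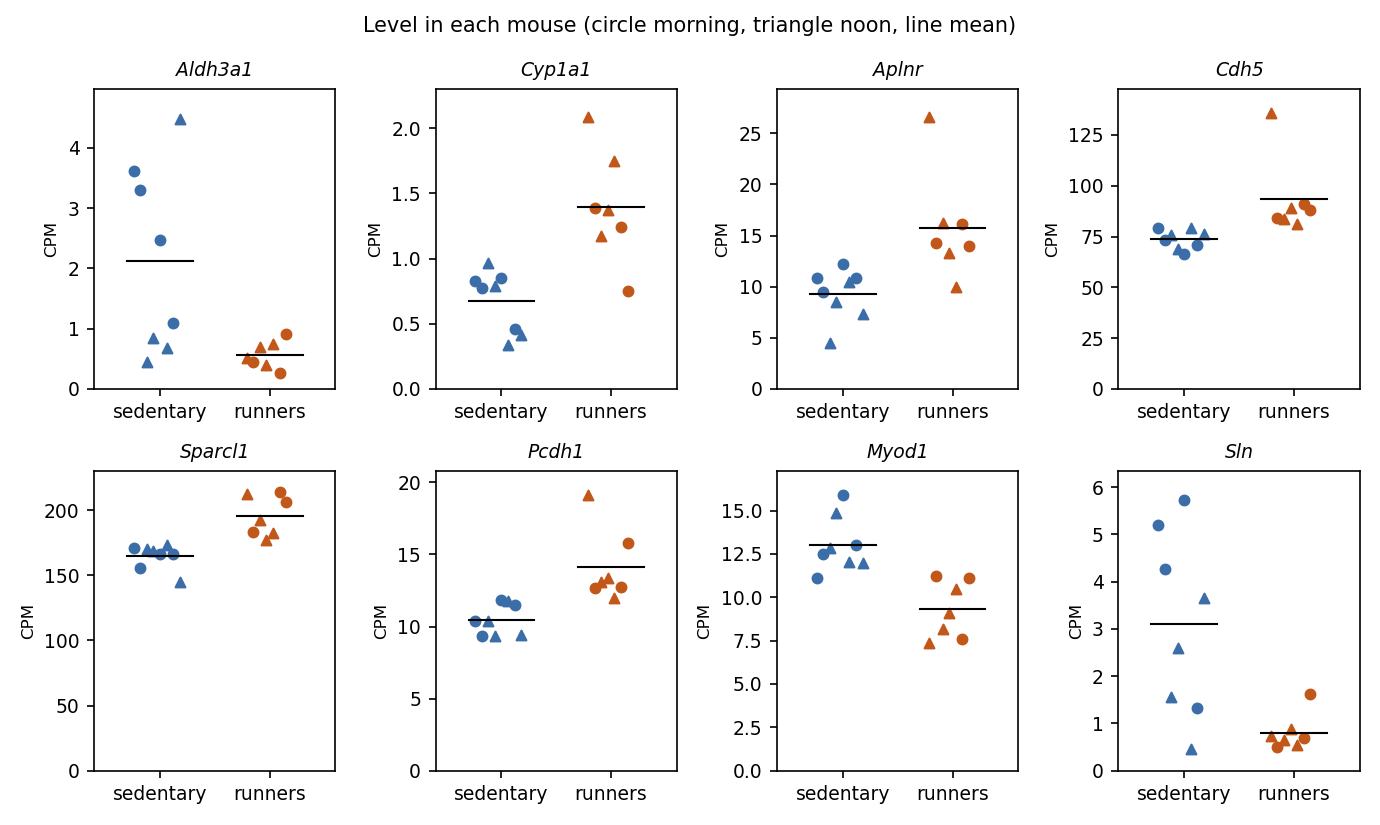
CPM in each mouse (y axes start at 0) for 8 genes, with sedentary mice in blue, runners in orange, circles for morning, triangles for noon and a line at each group's mean. The 7 runners lie above all 8 sedentary mice for Cdh5, Sparcl1 and Pcdh1, and below 1 CPM for Aldh3a1.

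Matrix and connective tissue genes were mostly higher as well. Of 35 extracellular matrix genes, 32 were higher in runners, and the median log2 change was 0.23. An unadjusted p below 0.05 was reached by 9 of them (25.7% of the list, against 3.81% of all genes in this direction). Lamb1, a chain of basement membrane laminin, was at 37.3, 51.1 and 54.7 CPM in runners and 27.4, 38.1 and 45.4 CPM in sedentary mice (log2 change 0.37 ± 0.11). Col15a1, a collagen of the muscle and capillary basement membrane, was at 52.6, 60.6 and 70.2 CPM against 28.6, 51.0 and 56.1 CPM (0.38 ± 0.13). For Lamb1 4 of the 7 runners were above every sedentary mouse, and for Col15a1 6 of 7. Lum, the collagen-binding proteoglycan lumican, had a log2 change of 0.38 and Mmp14, a membrane-bound matrix protease, of 0.46.

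All 15 fibroblast markers were higher, with a median of 0.22, and 2 of them reached an unadjusted p below 0.05 (13.3%, against 3.81% of all genes). One of these was Smoc2, a secreted calcium-binding matrix protein, at 0.20 ± 0.07. Macrophage and neutrophil markers were higher for 15 of 16 genes (median 0.23), with none under an unadjusted 0.05. That median was 0.12 without runner 3, 0.14 without sedentary mouse 8 and 0.09 without sedentary mice 2, 4 and 8. The summed fibroblast markers were 2772 to 3869 CPM in runners and 1742 to 3865 CPM in sedentary mice, and the macrophage and neutrophil markers 260.0 to 480.9 against 157.3 to 345.2 CPM. Sedentary mouse 8 was lowest in both sums. Without sedentary mouse 8 the matrix median was 0.14, and without sedentary mice 3 and 8 it was 0.06 and the fibroblast median 0.13. Lymphocyte markers summed to 3.072 to 4.17 CPM in runners and 2.726 to 5.432 CPM in sedentary mice, and 1 of 8 could be tested.

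The oxidative genes differed by little in each gene and in 1 direction. All 37 complex I subunits tested were higher in runners (median log2 change 0.15, 11 under an unadjusted 0.05), as were all 14 of complexes II and III (0.18, 3), all 13 of complex IV (0.18, 3) and all 16 of complex V (0.16, 5). In this order the counts are 29.7%, 21.4%, 23.1% and 31.2% of the lists, against 3.81% of all genes in this direction. The 8 mitochondrially encoded subunits tested were also all higher, with a median of 0.13, which was 0.06 without sedentary mouse 5, 0.08 without sedentary mouse 4 and 0.07 without runner 3. Of the 13 on that list, 5 were in the table but failed the filter on low counts: mt-Nd4l, mt-Co2, mt-Co3, mt-Atp6 and mt-Atp8.
Cox7a1, the heart and muscle form of a complex IV subunit, was at 155, 169 and 223 CPM in runners and 114, 145 and 174 CPM in sedentary mice (0.31 ± 0.13, adjusted p = 0.671). Atp5b, the catalytic beta subunit of ATP synthase, was at 2415, 2539 and 3179 CPM against 2096, 2350 and 2566 CPM (0.20 ± 0.08, adjusted p = 0.654). The groups overlap for both, and in each 3 of 7 runners were above every sedentary mouse. Ndufb5 of complex I had a log2 change of 0.23, and Cyc1, the cytochrome c1 of complex III, of 0.21. The mitochondrial gene mt-Co1 stood at 36585, 41027 and 52363 CPM in runners and 28337, 36268 and 40840 CPM in sedentary mice (0.23 ± 0.10). Reads on mitochondrial genes made up 10.58% to 13.93% of the runners' counts and 8.522% to 12.51% of the sedentary mice's. The mitochondrial subunits that failed the filter had few counts in the deposited table and add little to these shares. Whether their transcripts are rare or their reads went uncounted was not tested.

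Upstream of the chain, 19 of 20 genes of pyruvate dehydrogenase and the citric acid cycle were higher (median 0.15). Of the 20, 8 were higher at an unadjusted p below 0.05 (40%, against 3.81% of all genes in this direction). Cs, citrate synthase, a common marker of mitochondrial content, was at 925, 961 and 1129 CPM in runners and 815, 893 and 986 CPM in sedentary mice (0.15 ± 0.06, adjusted p = 0.671). Dlat, the E2 subunit of pyruvate dehydrogenase, had a log2 change of 0.21, and Mdh1 and Mdh2, the cytosolic and mitochondrial malate dehydrogenases, of 0.29 and 0.21. Fatty acid uptake and oxidation genes were higher for 30 of 32. Of these, 1 reached an unadjusted 0.05 (3.12% of the list, near the 3.81% of all genes in this direction). It was Acads, the short-chain acyl-CoA dehydrogenase (0.25). Large subunit proteins of the mitochondrial ribosome were higher for 39 of 47 with a median of 0.07, whereas those of the cytosolic ribosome were higher for 17 of 46 with a median of -0.01. Sirt3, the mitochondrial NAD-dependent deacetylase, had a log2 change of 0.26 ± 0.09, and 13 of the 27 genes of NAD metabolism were higher (median 0.00).
Glycolysis and glycogen genes were split, with 10 of 21 higher. Fbp2, the muscle fructose bisphosphatase, had a log2 change of -0.30 ± 0.11 and Gyg, the primer of glycogen, of -0.13. Ppargc1a was at 31.5, 33.5 and 41.7 CPM in runners and 25.4, 34.4 and 36.6 CPM in sedentary mice (0.14 ± 0.10, adjusted p = 0.809). Runners 6 and 7 were above every sedentary mouse, sedentary mice 4, 5 and 8 were below every runner, and the others overlapped. Slc2a4, the insulin-responsive glucose transporter, Hk2, the muscle hexokinase, and Pdk4, the kinase that shuts pyruvate dehydrogenase, had log2 changes of -0.04 ± 0.06, 0.00 ± 0.11 and 0.62 ± 0.43.

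Among the runners the slow-fibre genes rested on few animals. Myosin heavy chains mark fibre types: Myh4 the fast glycolytic IIB, Myh1 IIX, Myh2 IIA and Myh7 slow type I. Per kilobase of gene model, Myh4 averaged 9659 CPM in runners and 10119 in sedentary mice, Myh1 680 and 469, Myh2 105 and 78.1, and Myh7 0.523 and 0.0781, so Myh4 had the highest level of the 4 in both groups and Myh7 the lowest. Myh7 was at 0.338, 0.940 and 25.4 CPM in runners and 0, 0.472 and 1.44 CPM in sedentary mice. Runner 6 alone gave the top value, the next runner was at 2.37 CPM, and the log2 change of 2.28 ± 0.99 was 0.58 without runner 6. Myl3, the slow and ventricular essential light chain, was at 34.1 CPM in runner 6, 8.45 in runner 7 and at most 0.422 in the other 5 runners, with 0.0576 to 2.27 CPM in sedentary mice. Myl2, the slow regulatory light chain, was at 14.6 CPM in runner 6 and had a median of 1.07 CPM in runners and 0.915 CPM in sedentary mice. Of the 14 slow and oxidative sarcomere genes 12 were higher, with a median log2 change of 0.38, and 0.12 without runner 6.

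The same 2 runners led genes that are more abundant. Bdh1, the mitochondrial enzyme that uses ketone bodies, was at 30.1 CPM in runner 6, 19.4 in runner 7 and 3.14 to 11.2 in the other 5, against 1.76 to 8.47 CPM in sedentary mice (1.00 ± 0.49, and 0.64 without runner 6). Mb, the oxygen store myoglobin, was at 2241 CPM in runner 6 and 1571 in runner 7, and 792 to 1220.3 in the others, against 347 to 1215 CPM in sedentary mice (0.60 ± 0.30, and 0.36 without runner 6). Myh1 was at 2967, 3820 and 8007 CPM in runners and 1150, 3130 and 4340 CPM in sedentary mice (0.52 ± 0.28, and 0.28 without runner 6). Myh2 had a log2 change of 0.42 ± 0.52 with all mice and -0.06 without runner 6, and Myh4 of -0.06 ± 0.09. Runners 6 and 7 were killed in the morning of days 7 and 5. They were the only 2 of the 15 mice that had lost weight, as described further on. The runners of the supplemented arms killed in these same sessions had all lost weight as well.

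Each cohort fitted alone gave Mb a log2 change of 0.12 in cohort 1 and 0.94 in cohort 2, Bdh1 0.08 and 1.59, and Myh1 0.06 and 0.78. Runners 6 and 7 both belong to cohort 2. The respiratory chain lists kept a positive median in each cohort: 0.11 and 0.17 for complex I, 0.10 and 0.22 for complexes II and III, 0.11 and 0.22 for complex IV, and 0.09 and 0.21 for complex V. Without runner 6 the complex I median was 0.11, and that of fatty acid oxidation was 0.04 in place of 0.13, so their size moved with that mouse and their sign did not.

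**Figure D3:**
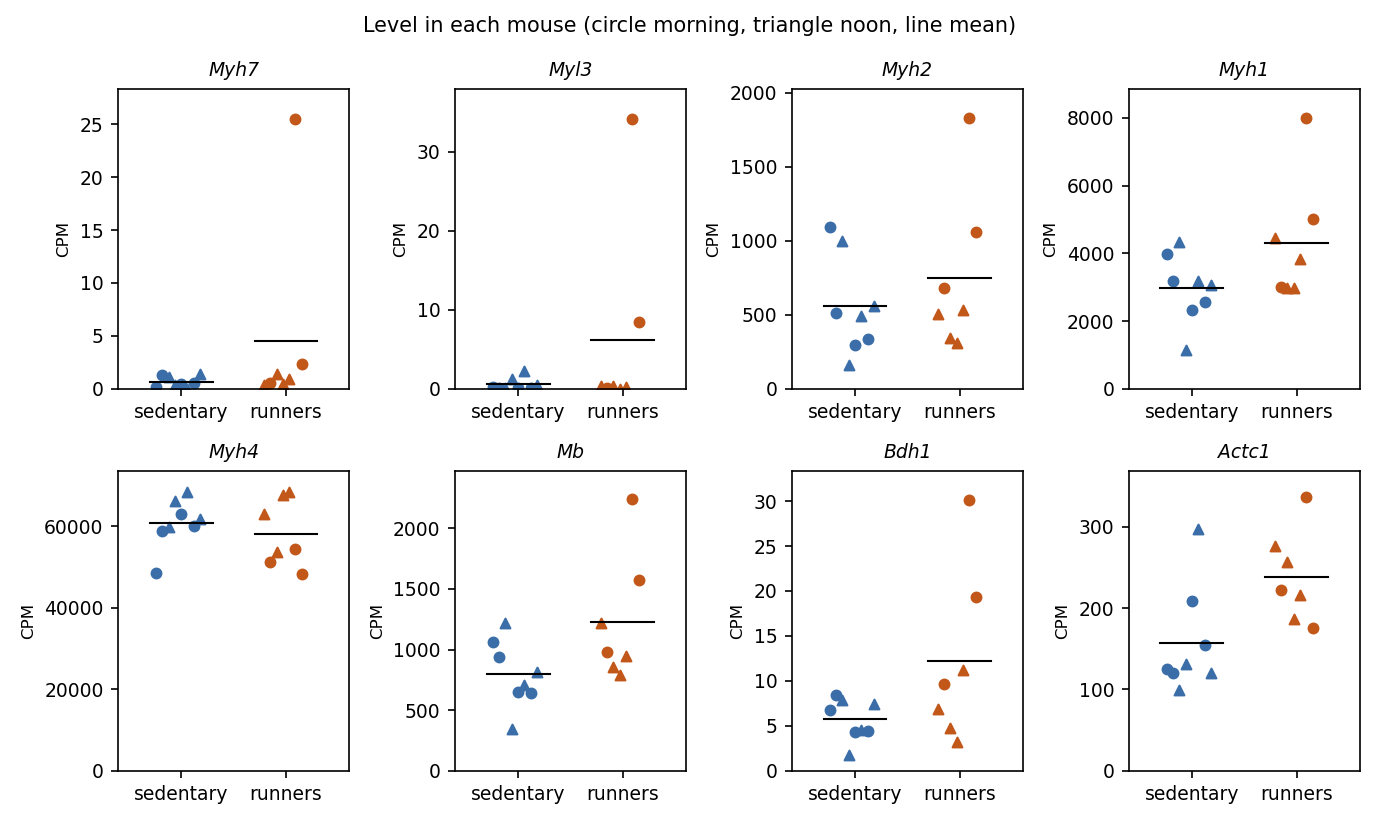
CPM in each mouse (y axes start at 0) for 4 myosin and light chain genes of slow and fast fibres, Myh4, Mb, Bdh1 and cardiac actin Actc1, with sedentary mice in blue, runners in orange, circles for morning, triangles for noon and a line at each mean. Runner 6 is the top point for Myh7 (25.4), Myl3 (34.1), Myh2, Myh1, Mb, Bdh1 and Actc1, and Myh4 overlaps between groups.

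Several muscle genes were lower in runners. Sln (chr9:53850164-53854560) encodes sarcolipin, a small inhibitor of the calcium pump of the sarcoplasmic reticulum. It was at 0.495, 0.701 and 1.61 CPM in runners and 0.453, 3.13 and 5.72 CPM in sedentary mice. Of the 8 sedentary mice, 5 were above every runner, and the log2 change was -1.93 ± 0.51 (adjusted p = 0.434). Calcium handling genes were lower for 15 of 18, with a median of -0.08 (-0.05 without runner 3), and Cacng1, a subunit of the muscle calcium channel, and Trdn, the triad protein triadin, had log2 changes of -0.18 and -0.13.
Myod1 (chr7:46376474-46379099), the master regulator of the muscle lineage, was at 7.37, 9.12 and 11.2 CPM in runners and 11.1, 12.6 and 15.9 CPM in sedentary mice (-0.49 ± 0.12, adjusted p = 0.412). The groups met only at their edges. Among the 20 genes of regeneration and denervation, 15 were lower and the median was -0.08. They include Musk, the agrin receptor kinase of the neuromuscular junction (-0.39 ± 0.15), and Cdkn1a, the cell cycle inhibitor p21 (-0.57 ± 0.24). Of the 5 that were higher, Actc1, cardiac alpha actin, had the largest change, at 175, 222 and 336 CPM in runners and 99.6, 128 and 297 CPM in sedentary mice (0.66 ± 0.25). The Actc1 change was 1.15 in cohort 1 and 0.23 in cohort 2.

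Glucocorticoid response and clock genes were mostly lower. The glucocorticoid response list was lower for 14 of 16 genes with a median of -0.22. Fitted alone, cohort 1 gave a median of -0.36 and cohort 2 of -0.09, and it was -0.115 without sedentary mice 3 and 8 and -0.117 without sedentary mice 2, 4 and 8. The clock list was lower for 15 of 19 with a median of -0.10, which was -0.16 without runner 3 and -0.06 without runner 4. Fkbp5, a chaperone that steroid hormones induce, was at 22.5, 27.8 and 36.2 CPM in runners and 19.9, 40.2 and 68.0 CPM in sedentary mice (-0.51 ± 0.24, adjusted p = 0.722). Cry1, a repressor of the clock, was at 12.1, 14.3 and 17.1 against 15.0, 17.1 and 19.1 CPM (-0.26 ± 0.09). Both lists are known to follow the hour of the day, and each pair of mice of a day differed in session. Time of termination was a term of the model, and its part beyond that in these values was not tested.
Chaperones were lower for 22 of 30 genes (median -0.04), and proteasome subunits for 27 of 32 (median -0.04). Hyou1 and Hspa5, chaperones of the endoplasmic reticulum, had log2 changes of -0.22 and -0.13, Hspa8, the constitutive cytosolic one, of -0.18, and Psmd8, a proteasome subunit, of -0.25. The integrated and mitochondrial stress response list leaned the other way, with 10 of 15 genes higher and a median of 0.08, which was 0.0042 without runner 1. Within it Atf4, the transcription factor of the integrated stress response, had a log2 change of -0.13. Of 24 immediate early genes 14 were higher, with a median of 0.09, which was 0.0081 without runner 1 and -0.04 in cohort 2 alone. Slc2a3, a glucose transporter, had a log2 change of -0.39 ± 0.15, within an insulin and glucose uptake list in which 18 of 29 were lower.

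In 7 genes every runner was above every sedentary mouse (0.0481% of all genes), and in 2 every runner was below (0.0137%). The 7 were Sparcl1, Pcdh1, Lbh, Cdh5, Tmem51, Adamts15 and Fam149b, and the 2 were R3hdm1 and Nfatc2. Sparcl1 (chr5:104079111-104113733), a secreted matrix protein of the vessel wall, was at 177, 193 and 214 CPM in runners and 145, 168 and 174 CPM in sedentary mice (0.25 ± 0.06). Pcdh1, a protocadherin, was at 11.9, 13.1 and 19.1 against 9.31, 10.4 and 11.8 CPM (0.42 ± 0.11). Lbh, a transcriptional cofactor, was at 7.21, 8.27 and 8.43 against 4.90, 6.19 and 6.81 CPM (0.39 ± 0.11). Gaps between the groups were narrow in these genes, as in R3hdm1, at 72.6 to 85.1 CPM in runners and 85.6 to 95.4 in sedentary mice. Nfatc2, a calcium-dependent transcription factor, was at 13.0 to 14.9 against 15.0 to 18.8 CPM. With day and time in the model its adjusted p was 0.733.
Other genes among the 10 smallest p were Fscn1, an actin-bundling protein (0.49 ± 0.12), Ntn4, a netrin of basement membranes (0.42 ± 0.11), Tcf15, a transcription factor expressed in muscle endothelium (0.71 ± 0.18), Amigo1, a neuronal adhesion protein (-0.24 ± 0.06), and the predicted gene Gm11266 (0.43 ± 0.11).

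The same contrast in the 3 supplemented arms asks how far running without supplement differs from running with one. Those arms share no mouse with the 15 described, but share killing sessions and the model's day and time terms. Each session held only runners or only sedentary mice, in every arm. An effect of a session would therefore enter the running change of all arms in the same direction. The agreement in sign given below, also in the separate fits, is not independent evidence for that reason. Running called 65 genes under NR alone (0.447%), 1 under PT alone (0.00687%) and 247 under both (1.7%), with median standard errors of 0.11, 0.10 and 0.11. The mean of the 3 arms, which averages 47 mice, called 1475 genes (10.1%). Of these 1475, 1348 (91.4%) had the same sign without supplement, compared with 9983 of all 14549 genes (68.6%). Among the 893 genes higher there, 810 were higher here, with a median log2 change of 0.25 there and 0.15 here. Among the 582 lower, 538 were lower here, with medians of -0.13 and -0.09. These genes were chosen by their p in the supplemented arms, which favours larger changes there. The medians therefore do not show whether running acts less without supplement. When the 15 and the 47 mice were fitted separately, 1345 of 1482 called genes (90.8%) had the same sign.
Read from the other side, 888 of the 990 genes (89.7%) had the same sign in that mean, and 630 (63.6%) in all 3 arms, against 35.7% of all genes.

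The difference itself was tested as an interaction, the running change without supplement minus the mean change with one. It called 0 genes (0%) with the same edgeR test, the smallest adjusted p was 1.00, and 366 genes had an unadjusted p below 0.05. DESeq2 and limma also called 0, with 369 and 391. A count of 0 here does not show that the arms respond alike: the median standard error of the interaction was 0.12 on the log2 scale.
The leading genes can be set side by side. The log2 change of Aplnr was 0.79 without supplement, 0.47 under NR, 0.50 under PT and 0.78 under both, and that of Cdh5 was 0.32, 0.46, 0.27 and 0.34. For Sln it was -1.93, -0.85, -0.67 and -2.74, and for Atp5b 0.20, 0.17, 0.17 and 0.27, in the same order. Cyp1a1 differed more between arms, with 1.01 without supplement and 0.21, 0.29 and 0.16 with one (interaction 0.79, adjusted p = 1.00), as did Tcf15 with 0.71 against 0.11, -0.11 and -0.01 (interaction 0.72, adjusted p = 1.00). Aldh3a1 was at -1.89 here, -0.35 under NR, -0.07 under PT and -2.03 under both. Aplnr, Cyp1a1, Tcf15 and Aldh3a1 were named for their small p in the arm without supplement. That choice favours larger changes here, so smaller ones in the other arms do not show a difference between arms.

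**Figure D4:**
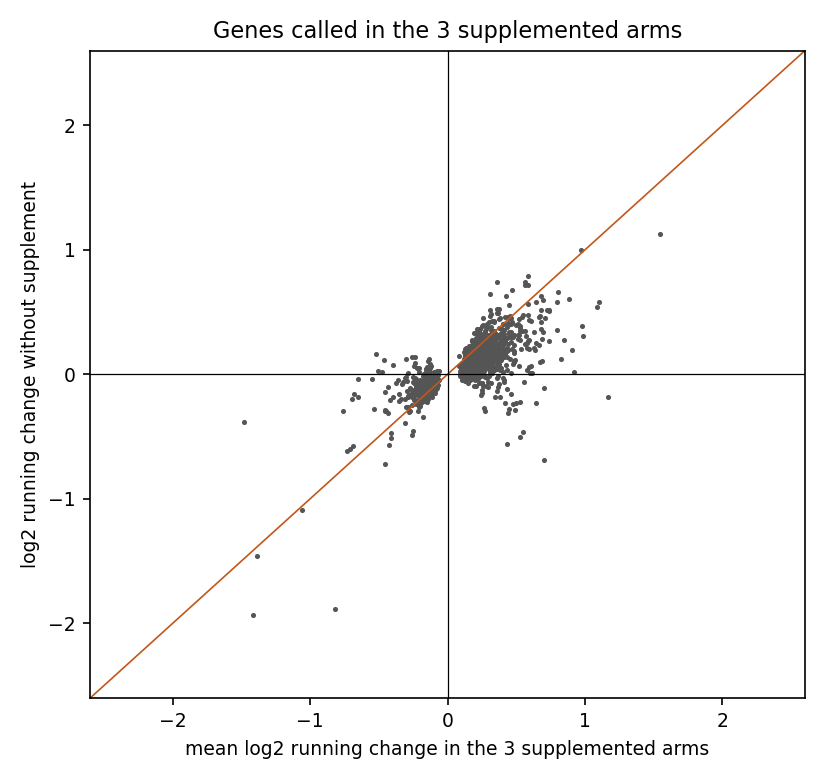
Each point is 1 of the 1475 genes called for the mean running change of the 3 supplemented arms, with that mean log2 change on the x axis and the log2 change without supplement on the y axis; the diagonal is equality. Of the 1475 points, 1348 share a sign on both axes.

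The 5 smallest p of the interaction were Krt15, Krt5, Gm13490, Banp and Itgal. The keratins Krt5 and Krt15, which belong to the basal layer of skin, rest on few mice: Krt5 was at 9.33 CPM in sedentary mouse 8, 1.68 in mouse 2 and 0.485 in mouse 4, and at most 0.198 CPM in the other 12 mice. Without these 3 mice its log2 change was 0.19 instead of -4.23, and that of Krt15 -0.01 instead of -4.47. Gm13490 is a predicted gene (-0.31 here and 0.44 in the mean of the others). Banp, a nuclear matrix protein that binds DNA, was at 4.22, 5.49 and 7.35 CPM in runners and 2.75, 3.54 and 4.87 CPM in sedentary mice (0.59 ± 0.17), against 0.07 to -0.21 in the supplemented arms. Itgal, the leukocyte integrin alpha L, was at 3.23 CPM in sedentary mouse 3 and 0.755 to 1.50 in the other 14 mice. Its log2 change was -0.56 with all mice and -0.32 without mouse 3.

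Among the lists, the interferon response stood on the other side of 0 from the supplemented arms, with a median of -0.07 here and 0.24, 0.25 and 0.40 under NR, PT and both. Cxcl10, an interferon-induced chemokine, was at 3.49 CPM in sedentary mouse 3, 0.242 to 1.02 in the other sedentary mice and 0.0980 to 0.732 CPM in runners (-1.30 ± 0.42). Without sedentary mouse 3 the list's median was 0.17 and the Cxcl10 log2 change -0.63. Fibroblast markers had a median of 0.22 here, -0.10 under NR, 0.16 under PT and 0.33 under both, and endothelial markers 0.22, 0.42, 0.18 and 0.26. The differences between arms were not tested at the level of lists.

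**Figure D5:**
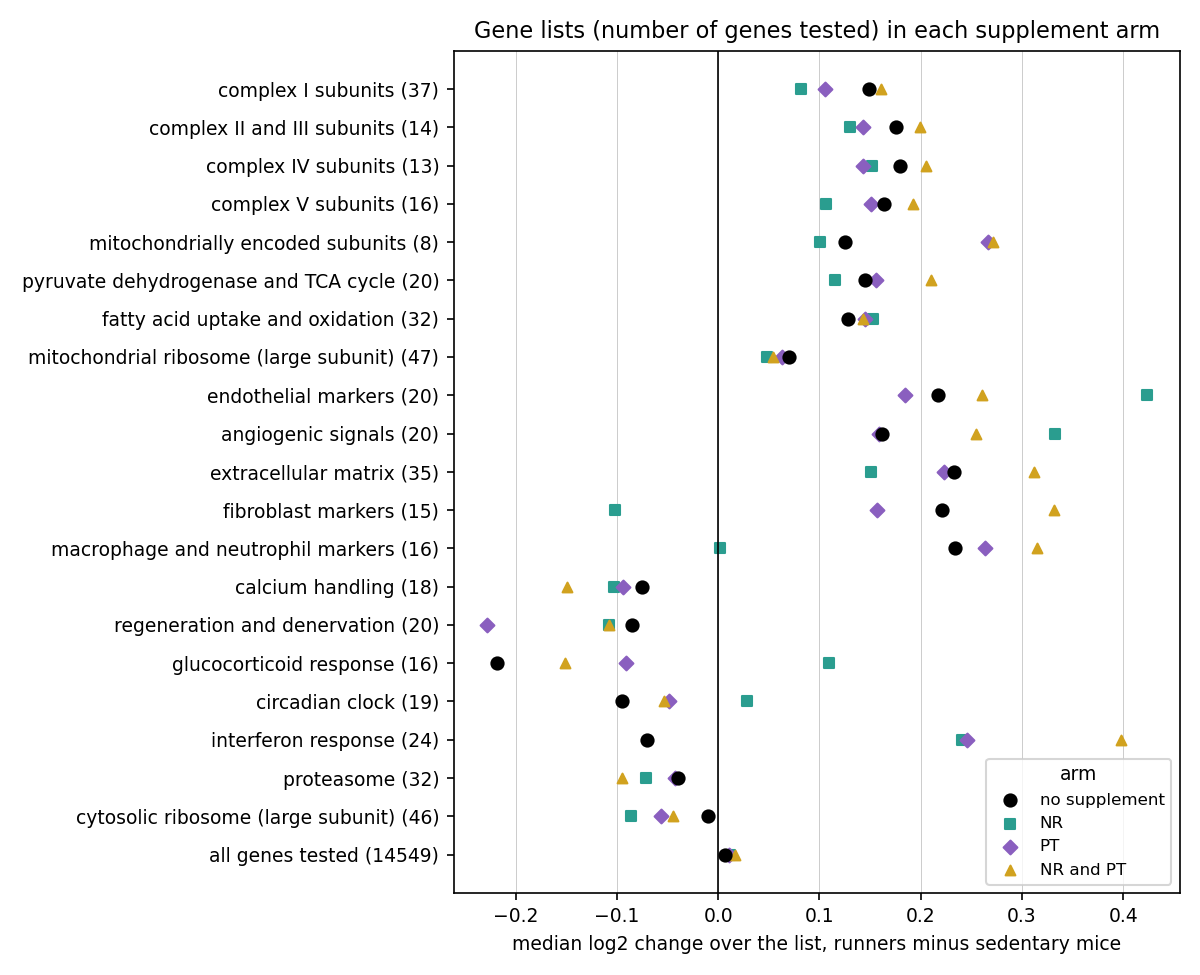
Median log2 change (runners minus sedentary mice, x axis) over the tested genes of 20 lists and over all genes, with black circles for the arm without supplement and coloured marks for the NR, PT and combined arms. The 5 respiratory chain lists lie between 0.08 and 0.27 in every arm, and the interferon list is at -0.07 without supplement.

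Body weight change, recorded in the labels with no unit, was 0.757 ± 2.06 (SD, n = 7) in runners and 3.38 ± 1.08 (SD, n = 8) in sedentary mice, with a difference of -2.62. The runners were at -1.8, 0.7 and 3.5 (lowest, median and highest) and the sedentary mice at 2.1, 3.3 and 5.3. The 2 lowest values belong to runners 6 and 7, at -1.8 and -1.5, while runners 3 and 5, at 3.5 and 3.1, were inside the sedentary range. An exact two-sided permutation test of the means gave p = 0.00855, and p = 0.0122 when mice were permuted within cohort. Neither permutation took account of day or session, and each session held only runners or only sedentary mice.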

How the data were processed

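Poly-A RNA of quadriceps from 62 mice was sequenced as stranded read pairs, per the labels' protocols. The deposited table holds raw read counts. Per the submitters' processing notes, STAR 2.7.3a, featureCounts 2.0.0 and the build mm10 were used. No source used here gives the strand setting of the counting or its annotation release, so overlapping genes on opposite strands (such as Nmrk2) and near-identical copies (Hba-a1 and Hba-a2) are uncertain. Symbols came from GENCODE M21 for 55394 of 55487 genes (99.8%).

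Genes were kept by filterByExpr (count of at least 10, total of at least 15) and libraries scaled by TMM in edgeR 4.0.16 (R 4.3.3). A robust quasi-likelihood fit of all 62 mice had the 8 groups, day and time as terms, with 46 residual degrees of freedom; calls needed a Benjamini-Hochberg adjusted p below 0.05. The code was tested on simulated data. Mice, not pooled samples, are the replicates. CPM are on TMM-scaled library sizes, and SDs are of CPM. limma 3.58.1 and DESeq2 1.42.0 served as alternatives, as did other covariates, filters, single cohorts and leaving out each mouse. No 2 libraries were copies of each other. Replicate numbers of the titles do not mark the day, so they were not used as pairs.

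The comparison, the 44 lists of genes and the rule for naming them were chosen with earlier results of these data known. The rule named the 10 smallest p, up to 4 genes with the smallest p of each list described, 14 fixed exercise genes, the 5 smallest p of the interaction, and the 5 smallest p among genes without overlap between groups. The other genes without overlap, and the mast cell genes and Gbp4 in the closing section, were named after their values were seen. Promoters came from RefSeq (GRCm38.p6).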

Additional observations from a re-analysis of the deposited data

Results flagged for a closer look

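Each group's lowest and highest mouse was compared with the rest of its group for 107 named genes, 12 sums of marker genes, body weight change, total counts and the share of mitochondrial counts, in 244 sets of values. In 30 of them (12.3%) 1 mouse stood apart by more than Dixon's 95% limit, which chance reaches in about 1 in 20 sets of independent values, and these sets are not independent.

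Runner 6 was the highest runner for Myh7 (25.4 CPM, next 2.37), Myl3 (34.1 CPM), Myl2 (14.6 CPM), Myh1 (8010 CPM), mt-Co1 (52400 CPM) and Ndufs1, a complex I subunit (519 CPM). Runner 1 was the highest for the vessel genes Aplnr (26.6 CPM), Cdh5 (136 CPM), Tie1 (55.2 CPM) and Pdgfrb (53.8 CPM), and for the summed endothelial markers (939 CPM, next 756). Runner 7 was the highest runner for Sln (1.61 CPM) and runner 3 for the beta globin Hbb-bs (151 CPM), the summed erythrocyte markers (222 CPM, next 113) and the summed macrophage and neutrophil markers (481 CPM, next 333).

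Sedentary mouse 8 was highest for Krt5 (9.33 CPM), Krt15 (14.8 CPM) and the sum of 6 keratinocyte genes (26.6 CPM, next 8.08). Sedentary mouse 3 was highest for the interferon-linked genes Cxcl10 (3.49 CPM) and Gbp4, a guanylate-binding protein (121 CPM), and for Itgal (3.23 CPM), and lowest for Adamts15 (1.75 CPM). Sedentary mouse 1 was highest for Hbb-bs (106 CPM), the alpha globin Hba-a1 (22.2 CPM), the summed erythrocyte markers (145 CPM) and the macrophage gene Cd68 (13.8 CPM). Single sedentary mice also stood apart for Sirt3 (mouse 2, 18.4 CPM), Slc2a3 (mouse 2, 23.9 CPM), Nos3 (mouse 6, 12.2 CPM) and Cd38 (mouse 7, 13.2 CPM).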

How the results depend on the processing

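The count of called genes was 0 in 31 of 32 alternatives, and leaving out each mouse gave 0 to 0. The exception was the replicate block on the 15 mice, with 2 genes called, Spns2 (-0.43, adjusted p 0.0256; 0.654 without the block) and Flvcr1 (0.44, 0.0256; 0.774). The titles' numbers mark neither day nor animal, and same-numbered mice correlated between -0.165 and 0.283, so this block has no basis in the design. With no filter on low counts (35005 genes tested), the 990 genes at an unadjusted p below 0.05 became 1540. Without 1 mouse they became 754 to 1170. All 990 kept their direction when any 1 mouse was left out and they were tested. They were chosen by their p in these same mice, so leaving out 1 mouse could hardly turn their sign. Over 107 named genes and all alternatives, 3382 of 3410 values kept their direction and stayed short of the threshold, and 28 reversed, in 7 genes. These were Krt5 without sedentary mice 2, 4 and 8 (0.19), Vegfa in cohort 1 (-0.086) and without 1 mouse (-0.018 to 0.12), Myh2 in cohort 1 (-0.43) and without 1 mouse (-0.062 to 0.60, lowest without runner 6), Slc2a4 in cohort 2 (0.033) and Cd38 in cohort 2 (-0.041). Hk2, at 0.00, turned positive with group alone (0.00064), with cohort in place of day (0.0029), with pool (0.023) or RIN (0.0071) added, in cohort 2 (0.066), without sedentary mice 3 and 8 (0.043) and without 1 mouse (-0.060 to 0.053). Gbp4, at 0.14, turned negative with group alone (-0.35), cohort and time (-0.012 in the 15 mice, -0.22 in all), limma (-0.051), in cohort 1 (-0.40) and without 1 mouse (-0.26 to 0.67). The cause was not tested. Of 44 list medians, 33 moved by over 1.5 times or in sign in a cohort fitted alone, and 10 had opposite signs in the 2 cohorts. Among them were, for cohorts 1 and 2, the slow sarcomere list (-0.09 and 1.12), adipocyte markers (0.58 and -0.27), ketone, lactate and pyruvate handling (-0.0090 and 0.19), fatty acid oxidation (0.02 and 0.22) and the citric acid cycle (0.07 and 0.20). Oxygen carriage was 0.70 and 0.22, and 0.14 without runner 3. The sets without sedentary mice 2, 4 and 8 or 3 and 8, and the separate fits, were chosen after seeing the data.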

Other observations

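Mast cell proteases, which were picked after their values were seen, were higher in runners. Cpa3, the mast cell carboxypeptidase, was at 2.75, 5.01 and 5.77 CPM in runners (lowest, median and highest) and 1.44, 2.86 and 4.44 CPM in sedentary mice, a log2 change of 0.65 ± 0.17. The log2 change of Cma1, a chymase, was 0.63 ± 0.18 and that of Tpsb2, a tryptase, 0.54 ± 0.16. The summed level of these and of Mcpt4, Kit and Hdc was 17.25 to 30.28 CPM in runners and 9.121 to 21.82 CPM in sedentary mice, with an adjusted p of 0.433 for Cpa3 in edgeR's quasi-likelihood test. Under NR, PT and both, in this order, the log2 change was 0.19, 0.40 and 0.33 for Cpa3, 0.47, 0.22 and 0.59 for Cma1, and 0.34, -0.02 and 0.46 for Tpsb2.

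The 5 erythrocyte markers tested were hemoglobin transcripts, which come from red cells in the vessels, and Alas2, an enzyme of heme synthesis. All 5 were higher, with a median log2 change of 0.42. Hbb-bs was at 41.8, 58.9 and 151 CPM in runners and 32.9, 48.3 and 106 CPM in sedentary mice (0.42 ± 0.28), and runner 3 was highest. Without runner 3 the median of the list was 0.10.

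Nmrk2, the nicotinamide riboside kinase of muscle, was at 36.4, 58.9 and 150.5 CPM in runners and 54.9, 107 and 149 CPM in sedentary mice, with a log2 change of -0.53 ± 0.28 (edgeR, adjusted p = 0.739). Under NR, PT and both it was 0.05, 0.03 and 0.22. Its reads cannot be told apart from those of an antisense partner without the strand setting.

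Gbp4 reached 121 CPM in sedentary mouse 3 and 47.5 CPM in sedentary mouse 8, with 5.19 to 12.5 CPM in the other 6 sedentary mice, and 48.6 CPM in runner 5, with 9.17 to 34.6 CPM in the other runners.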
